A study of Mus musculus with 12 samples.

Results

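Autophagy machinery is described here through 40 genes that encode the initiation kinases, the lipid kinase complex, the membrane and lipid transfer proteins, the conjugation enzymes, the ATG8 family, the cargo receptors and the fusion factors. Rows of the count table were taken by gene symbol, and 40 of the 34948 rows with a symbol were members. All 40 also passed the filter on low counts that left 16546 genes for testing. The material was bulk RNA of mouse peritoneal macrophages, in 12 libraries of 3 per group. The groups were R300 KO, blank KO, R300 WT and blank WT. KO stands for the genotype Mac-Ern1KO and WT for Ern1fl/fl, which carries the floxed allele without the deletion. Ern1 encodes IRE1α, a stress sensor of the endoplasmic reticulum, and the labels do not name the Cre driver or the exon removed. All mice were male and 8 weeks old per the labels, and all had received 3% Brewer thioglycolate in the peritoneum 3 days before, an irritant that recruits monocytes. R300 groups had been kept for 2 h with platelets opsonised by R300, an antibody against CD42 on the platelet surface. Blank groups carry the treatment label Con, and the labels do not say whether uncoated platelets were added. The series asks how IRE1α bears on macrophage phagocytosis in immune thrombocytopenia, and the comparisons ask whether transcripts of the autophagy machinery differ with coated platelets or with genotype.

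Macroautophagy encloses cytoplasm in a double membrane that grows around its cargo, closes and fuses with lysosomes. The ULK kinase complex starts it, the PIK3C3 complex marks the membrane with phosphatidylinositol 3-phosphate, ATG9A and ATG2 proteins supply lipid, and conjugation enzymes attach ATG8 proteins to the membrane. In macrophages the same conjugation enzymes also attach LC3 to phagosomes after Fc receptors engage antibody-coated particles, a route called LC3-associated phagocytosis that needs UVRAG and Rubicon (Rubcn) but not the ULK complex.

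None of the 40 members changed with coated platelets or with genotype in any comparison at an adjusted p under 0.05. Spread between libraries of a group was smaller for them than for all genes tested. Members and other genes were not matched for expression level, so a steadiness particular to autophagy genes is not shown. In each of the 4 comparisons between groups, the 95% interval of the fold change lay within 2-fold either way for 40 of 40 members. Among all 16546 genes tested, that share was 60.4% for R300 KO against blank KO, 60.3% for R300 WT against blank WT, 64.1% for KO against WT in R300 cells and 65.5% for KO against WT in blank cells. The median standard deviation between libraries of a group was 0.179 on the log2 scale for the members and 0.308 for all genes. The smallest count of any member in a library was 50, for Atg10, and the next smallest minimum over members was 244.

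Several properties of the libraries touch these values. Total counts, to 6 digits, ran from 21759300 to 44263400 per library, and members took 0.455% to 0.609% of them. Xist, a transcript of the silenced X of females, reached 143 to 590 CPM (counts scaled to library size and composition) in 8 libraries, which goes against the male sex in the labels. Another 4 libraries held at most 0.0742 CPM, 1 in each group, namely R300 KO 3, blank KO 3, R300 WT 2 and blank WT 3. Y-linked genes were present in all 12, summing to between 42.6 and 162 CPM where Xist was high and to between 205 and 224 CPM where it was not. Whether cells of several animals or of both sexes were pooled is not stated in the labels. R300 KO libraries 1 and 2, and R300 WT libraries 1 and 3, were closer to each other than any other pair within a group, with a median chi-square per gene of 1.53 and 1.37 against 6.14 to 10.1. Labels call the libraries biological replicates, but the R300 groups may hold fewer than 3 independent samples, and p-values measure the spread between these libraries. Ern1 itself was not lower in KO, with 235, 225 and 174 CPM in R300 KO and 204, 138 and 205 CPM in R300 WT. In blank cells Ern1 had 150, 155 and 116 CPM in KO and 113, 117 and 94.1 CPM in WT. Counts over a whole gene do not show the loss of a floxed exon, so they do not check the genotype labels. Macrophage markers were all detected (10 of 10 genes), and their summed level ran from 13050 to 15210 CPM in R300 KO, 11670 to 12800 CPM in blank KO, 18960 to 19670 CPM in R300 WT and 17850 to 19710 CPM in blank WT. The lower sums in KO lay mostly in Lyz2, given below. Platelet markers (9 of 10 in the table) summed to 69.0 to 126 CPM in R300 KO, 63.9 to 106 CPM in blank KO, 52.6 to 104 CPM in R300 WT and 52.8 to 88.9 CPM in blank WT. Genes of mesothelial cells and fibroblasts (10 of 10 in the table) summed to 364 to 866 CPM in R300 KO, 365 to 482 CPM in blank KO, 196 to 1450 CPM in R300 WT and 155 to 679 CPM in blank WT, and B cell genes (10 of 10) to 39.5 to 61.7 CPM in R300 KO, 55.2 to 132.5 CPM in blank KO, 29.4 to 37.4 CPM in R300 WT and 32.7 to 150.8 CPM in blank WT. Recruited monocyte genes (8 of 8 in the table) summed to 573 to 717 CPM in R300 KO and 634 to 1054 CPM in blank KO. In WT they summed to 598 to 740 CPM in R300 and 743 to 1027 CPM in blank, without overlap. Eosinophil and mast cell genes (11 of 11) summed to 44.7 to 93.3 CPM in R300 KO and 30.0 to 65.9 CPM in blank KO. In WT these summed to 47.2 to 55.8 CPM in R300 and 17.9 to 44.3 CPM in blank, also without overlap. No marker on any list was at 0 in all libraries, and the part of these cells in the results was not tested. In bulk RNA, fewer cells of a type and less RNA per cell cannot be told apart.

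Per kilobase of merged exons, the machinery spanned a wide range of levels, with Sqstm1, Rab7, Gabarap and Gabarapl1 at its top in that order of group means in all 4 groups. Sqstm1, which encodes the cargo receptor p62, stood first at 409 to 883 CPM per kb over the 12 libraries. Its lowest library lay above the highest library of every other member. Rab7, the small GTPase of late endosomes and lysosomes, had 181 to 290 CPM per kb, and Gabarap had 162 to 202 CPM per kb, so these neighbours overlapped. Gabarapl1 followed at 50.2 to 68.0 CPM per kb, clear of Gabarap above it and of Tax1bp1 below it at 20.5 to 36.5 CPM per kb. From Tax1bp1 downwards each member's range overlapped that of its neighbour in the order. The median member stood at 9.01 CPM per kb. At the bottom were Atg2b at 2.32 to 2.92, Atg10 at 1.26 to 2.53 and Atg16l2, a paralogue of Atg16l1, at 1.07 to 1.80 CPM per kb. Atg10 encodes the enzyme that joins ATG12 to ATG5, and it was far below Atg3, the corresponding enzyme for ATG8 proteins, at 24.2 to 30.3 CPM per kb.

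**Figure D1:**
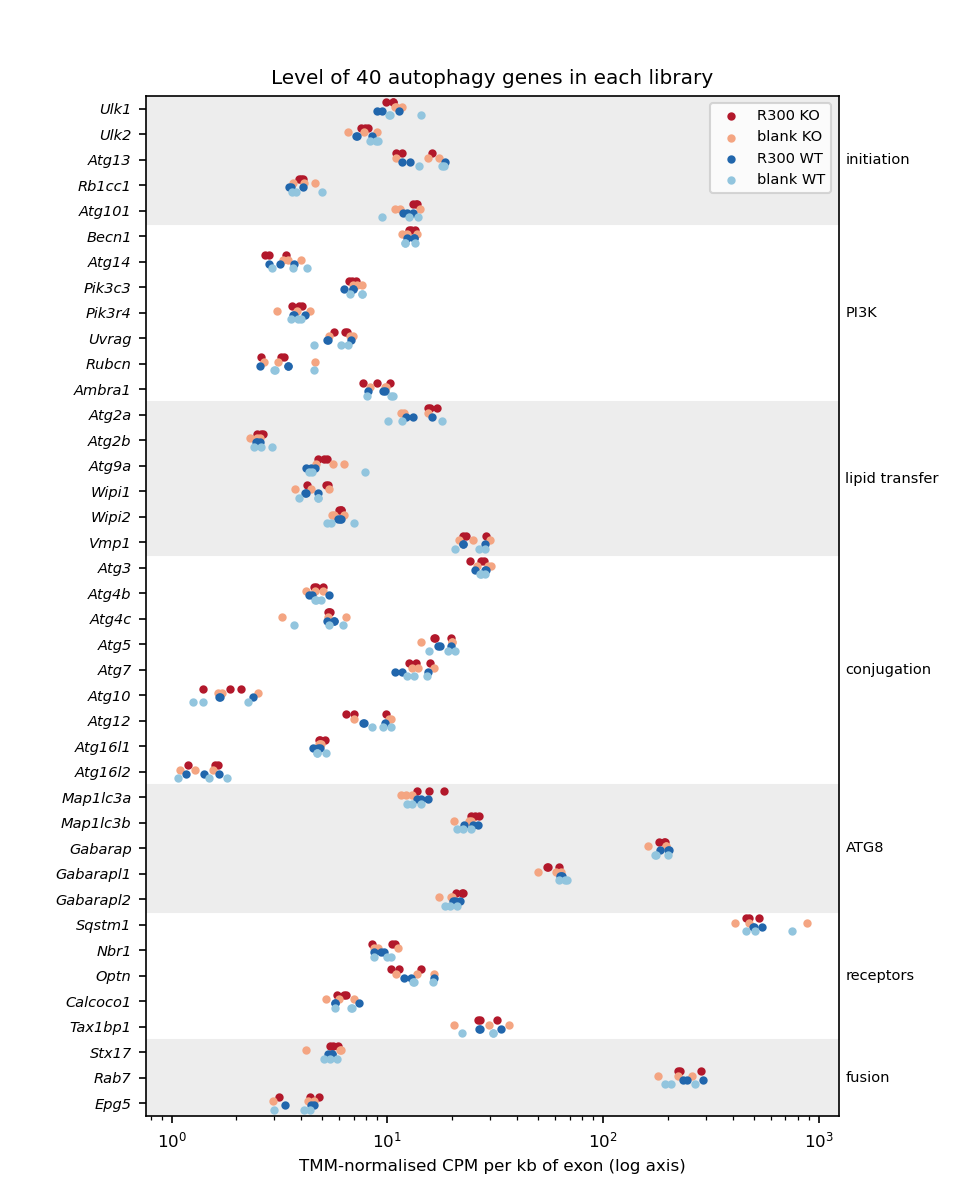
Level of each of the 40 members in CPM per kb of merged exons on a log axis, with genes by role and 1 point per library coloured by group. Points of the 4 groups lie close together within a gene, while genes range from Sqstm1 at 409 to 883 CPM per kb down to Atg16l2 at 1.07 to 1.80 CPM per kb.

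Within the ATG8 family, the GABARAP branch outweighed the LC3 branch. Gabarap gave 58.4% to 62.7% of the summed CPM per kb of the 5 genes over the 12 libraries, and Gabarapl1 gave 17.8% to 22.4%. Map1lc3b gave 7.27% to 8.36%, Gabarapl2 gave 6.02% to 7.40%, and Map1lc3a gave 3.72% to 5.84%. These shares depend on the exon model, since Map1lc3b is annotated with 7.517 kb of merged exons and Gabarap with 1.844 kb. Counted per gene and not per kb, Map1lc3b averaged 191 ± 8.10 CPM in R300 KO, 172 ± 16.4 CPM in blank KO, 186 ± 14.5 CPM in R300 WT and 171 ± 13.1 CPM in blank WT (SD, n = 3 each). Some members overlap neighbours or have near-identical copies, and how such reads were counted is not given in the sources used here. Of the exonic length, 43.9% overlaps a gene on the opposite strand for Becn1 (Cntd1), 28.3% for Gabarapl1 and 17.3% for Sqstm1 (Mrnip), and the NEBNext Ultra RNA kit named in the labels does not mark the strand. For Atg9a, 31.8% of the exonic length is shared with the same-strand model Gm29253. Gabarapl2 has a processed pseudogene of 99.4% identity, Gm3724, which averaged 78.3 counts per library beside 1529 for Gabarapl2. Rab7 has the copy Rab7-ps1 at 98.4% identity, with 431 counts on average, and Uvrag shares a stretch of about 95% identity with exons of several other genes, so these 3 levels are uncertain to that extent.

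Promoter sequence was examined because TFEB, TFE3 and related factors, which drive lysosome and autophagy genes, bind E-boxes with the core CACGTG, because ATF4 and CREB family members bind TGACGTCA or relatives of it, and because NRF2 binds antioxidant elements with the core TGACNNNGC. RefSeq windows from 250 bases before to 50 bases after the gene start (GRCm38.p6) were found for 33 of the 40 members, in 40 windows, and both strands were searched. CACGTG occurred in 5 of the 40 member windows, from 5 members, and in 7.15% of all 32851 windows. The longer TCACGTGA, which contains it, occurred in 1 of the 40 member windows, that of Atg3, and in 0.974% of all windows. TGACGTCA occurred in 2 of the 40, from 2 members, and in 1.79% of all windows. TGACNNNGC occurred in 8 of the 40, from 6 members, and in 12.4% of all windows. These shares were not tested. A match is a description of letters and not of binding. Sites are shown here, 5′ to 3′ on the strand of the gene, with the motif in capitals, so that members with and without a letter match can be set against their values. Atg3 holds 2 sites that begin at positions -94 and -71 from the start, at chr16:45158723-45158752 and chr16:45158746-45158775 on the plus strand. The E-box of Atg5, at chr10:44268313-44268342 on the plus strand, begins at -14, and a TGACGTCA follows it at -1 (chr10:44268327-44268356). In Atg14 the E-box begins at -1 of a RefSeq start that lies inside the gene as GENCODE annotates it, whose minus-strand 5′ end is at 47570649 (site at chr14:47568418-47568447, minus strand). In Rubcn it begins at -88 of another start inside the gene (chr16:32868437-32868466, minus strand), and in Atg7 at -132 of such a start (chr6:114670952-114670981, plus strand). Atg16l2 holds TGACGTCA at -18 (chr7:101302088-101302117, minus strand).
Atg3, site at -94: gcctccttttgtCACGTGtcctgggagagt
Atg3, site at -71: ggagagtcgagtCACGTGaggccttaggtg
Atg5, E-box: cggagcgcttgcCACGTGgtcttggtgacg
Atg5, TGACGTCA: cgtggtcttggTGACGTCAtctccgggcgc
Atg14, E-box: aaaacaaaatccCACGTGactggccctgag
Rubcn, E-box: cgcctagcacatCACGTGtacccaggttag
Atg7, E-box: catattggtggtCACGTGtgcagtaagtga
Atg16l2, TGACGTCA: tgctgccgcccTGACGTCAtggagtccccg

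Upstream windows of the most abundant member, Sqstm1, and of Gabarapl2 held none of these motifs but several GC boxes. Gabarapl2 is shown as 1 of the 3 ATG8 genes whose R300 libraries all lay above the blank ones in KO. Of the other two, Map1lc3b held TGACNNNGC and Map1lc3a had no entry in the promoter table. The GC box, CCGCCC on either strand, is the core bound by SP1. It occurred in the 250 bases upstream in 21 of the 40 member windows and in 32.7% of all windows. Sqstm1 held 3 and Gabarapl2 held 2, marked in capitals. Sqstm1 is shown for chr11:50210821-50211070 on the minus strand and Gabarapl2 for chr8:111940453-111940702 on the plus strand, both in GRCm38.p6.
Sqstm1: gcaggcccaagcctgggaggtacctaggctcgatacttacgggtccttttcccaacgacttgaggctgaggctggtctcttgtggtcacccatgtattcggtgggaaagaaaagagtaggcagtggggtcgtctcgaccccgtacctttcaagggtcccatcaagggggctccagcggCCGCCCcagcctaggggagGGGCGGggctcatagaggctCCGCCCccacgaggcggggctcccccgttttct
Gabarapl2: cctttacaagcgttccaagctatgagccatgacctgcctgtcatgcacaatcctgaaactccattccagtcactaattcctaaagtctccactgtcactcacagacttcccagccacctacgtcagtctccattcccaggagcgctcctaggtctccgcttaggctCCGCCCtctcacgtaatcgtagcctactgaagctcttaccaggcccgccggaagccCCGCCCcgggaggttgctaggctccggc

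Coated platelets were compared with blank in KO macrophages. No member passed an adjusted p of 0.05 in edgeR's quasi-likelihood test, beside 0.834% of all genes (138 of 16546). DESeq2 called 0 members too, beside 416 genes in all. At an unadjusted p under 0.05 there were 2 members, Map1lc3a and Gabarapl2, or 5.00% of the members beside 8.78% of all genes. The median log2 change of the members was 0.02 and that of all genes was -0.00, with 21 of 40 members above 0 beside 49.3% of all genes. Member changes ran from -0.27 for Sqstm1 to 0.37 for Map1lc3a. The median size of the change regardless of sign was 0.0761 for members and 0.174 for all genes. Libraries of the 2 groups did not overlap for 4 members, or 10.0% beside 12.3% of all genes. Among these 4, Map1lc3a, Map1lc3b and Gabarapl2 lay higher in R300 KO, as did 6.64% of all genes, and Ulk1 lay lower, as did 5.68%.

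In WT macrophages the same comparison gave no member at an adjusted p under 0.05 either, beside 0.623% of all genes (103 of 16546). DESeq2 called 0 members, beside 332 genes in all. At an unadjusted p under 0.05 there were 0 members, beside 8.72% of all genes. The median log2 change was -0.04 for members and -0.00 for all genes, with 17 of 40 members above 0 beside 49.1% of all genes. Changes ran from -0.34 for Atg9a to 0.21 for Atg10. The median size was 0.0772 for members and 0.177 for all genes. R300 WT and blank WT libraries overlapped for all 40 members, whereas they did not overlap for 12.8% of all genes. With library totals in place of the composition-corrected scaling, the median of all genes moved to -0.05 in WT and to -0.07 in KO, and 12 members in WT and 11 in KO were above 0.

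**Figure D2:**
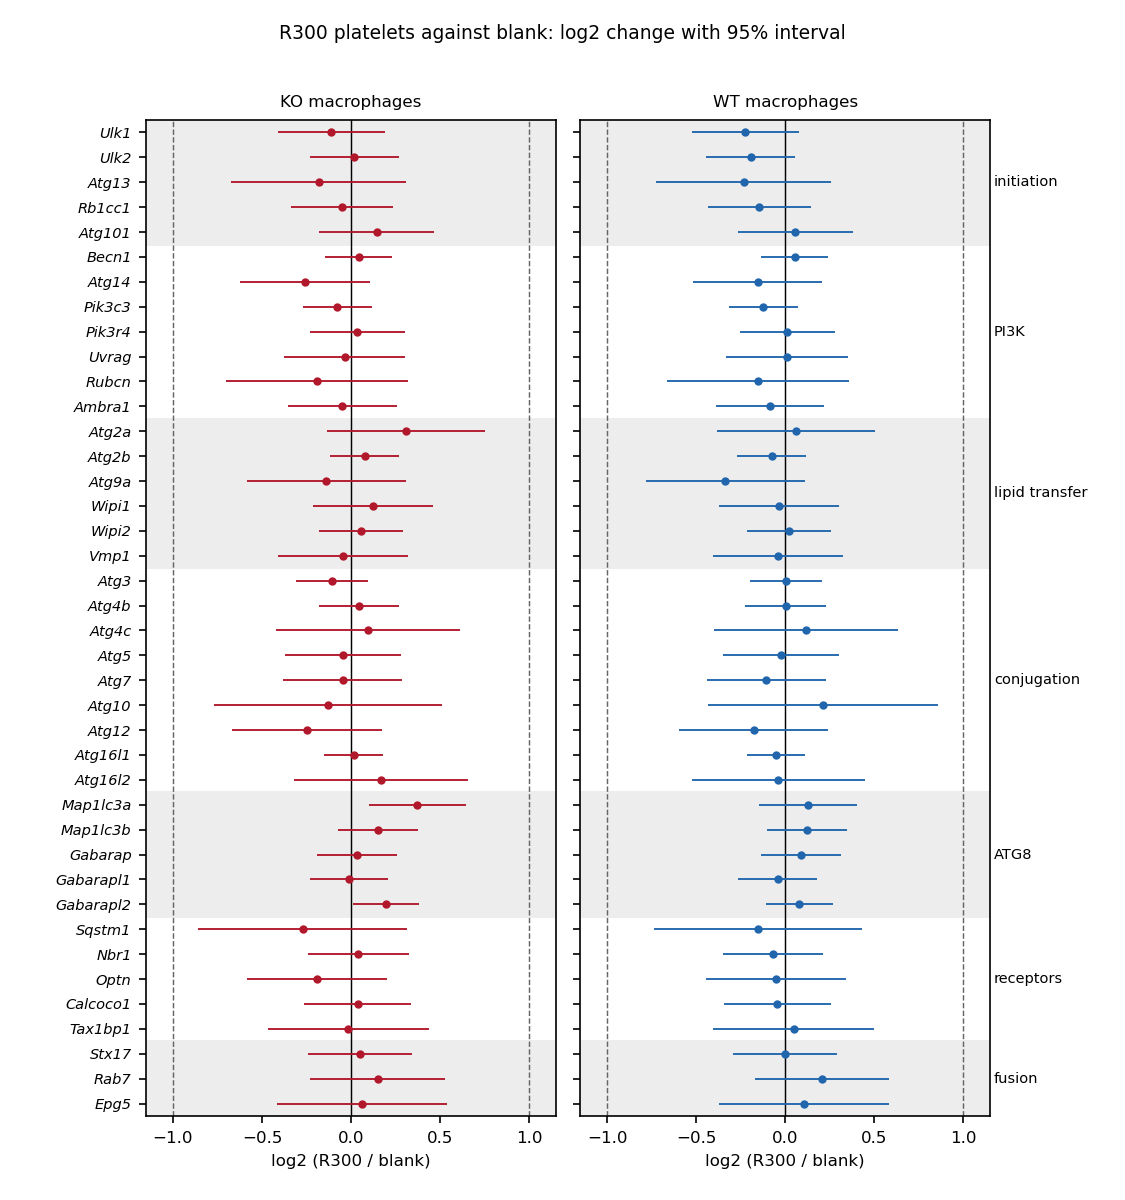
Log2 change of each member between R300 and blank libraries, with its 95% interval, for KO and WT side by side and grouped by role. Dashed lines mark 2-fold either way, and every interval of both genotypes lies inside them, with interval ends between -0.857 and 0.859.

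Initiation genes sat within 0.25 of 0 on the log2 scale in both genotypes. Ulk1 and Ulk2 encode the kinases that respond to AMPK and mTORC1, and Atg13, Rb1cc1 and Atg101 encode their partners. Ulk2 had the lowest p of any member in WT, with 42.9, 50.7 and 43.3 CPM in R300 WT and 54.1, 49.7 and 52.8 CPM in blank WT. Its log2 change was -0.19 (SE 0.11, adjusted p 0.714), and the groups overlapped through R300 library 2. In KO the values of Ulk2 were 47.4, 45.0 and 48.8 CPM in R300 and 53.3, 39.4 and 46.7 CPM in blank, a log2 change of 0.02 (SE 0.11, adjusted p 0.999). Without blank KO library 2 that change was -0.09 (SE 0.10), the same direction as in WT. Ulk1 had 68.8, 63.9 and 69.1 CPM in R300 KO, all below the 76.2, 71.2 and 70.3 CPM of blank KO, with a log2 change of -0.11 (SE 0.14, adjusted p 0.955). In WT, Ulk1 had 58.0, 73.6 and 61.5 CPM in R300 and 66.6, 92.7 and 66.3 CPM in blank, a log2 change of -0.22 (SE 0.14, adjusted p 0.729). Blank WT library 2 stood apart there, and without it the log2 change of Ulk1 was -0.05.

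Genes of the PIK3C3 complex gave no call either. They comprise Pik3c3, the lipid kinase, its scaffold Pik3r4, Becn1, the alternative subunits Atg14 and Uvrag, the inhibitor Rubcn and the Beclin 1 partner Ambra1. Log2 changes of the 7 genes ran from -0.26 to 0.04 in KO and from -0.15 to 0.05 in WT. Atg14, which directs the complex to sites where autophagosomes form, had the lowest p of the group in KO. It had 12.2, 11.8 and 14.7 CPM in R300 KO and 14.2, 17.2 and 14.96 CPM in blank KO, a log2 change of -0.26 (SE 0.17, adjusted p 0.790). The ranges overlapped through R300 KO library 3. In WT, Atg14 had 13.8, 16.0 and 12.3 CPM in R300 and 12.6, 18.4 and 15.7 CPM in blank, a log2 change of -0.15 (SE 0.17, adjusted p 0.893). Rubcn and Uvrag, the pair tied to LC3-associated phagocytosis, gave no call, with log2 changes for Rubcn of -0.19 in KO (SE 0.23) and -0.15 in WT (SE 0.23).

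None of the 6 membrane and lipid transfer genes was called, and blank library 2 stood apart for Atg9a in WT and for Atg2a in both genotypes. Atg9a encodes the scramblase of the vesicles that seed the autophagosome. It had 24.2, 26.6 and 25.5 CPM in R300 WT and 25.8, 45.3 and 25.1 CPM in blank WT, a log2 change of -0.34 (SE 0.20, adjusted p 0.727). Blank WT library 2 stood above the other 5, which lay between 24.2 and 26.6 CPM, and without it the log2 change was 0.00. In KO, Atg9a had 30.2, 29.2 and 27.5 CPM in R300 and 32.4, 36.3 and 27.0 CPM in blank, a log2 change of -0.14 (SE 0.20, adjusted p 0.969). Atg2a, a lipid transfer protein, had 131, 121 and 119 CPM in R300 KO and 88.8, 119 and 91.8 CPM in blank KO, a log2 change of 0.31 (SE 0.20, adjusted p 0.804) that was 0.45 without blank KO library 2. In WT the log2 change of Atg2a was 0.06 with all libraries and 0.35 without blank WT library 2, at an adjusted p of 0.742. Its paralogue Atg2b had 35.8, 35.1 and 33.7 CPM in R300 KO and 31.2, 33.6 and 34.4 CPM in blank KO, with overlap and a log2 change of 0.08 (SE 0.09). Wipi1 and Wipi2, which bind phosphatidylinositol 3-phosphate, and Vmp1, an endoplasmic reticulum membrane protein, gave no call.

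Conjugation enzymes were 9 of the members and none was called. They include Atg7, which activates both ubiquitin-like proteins, the transfer enzymes Atg3 and Atg10, the Atg12, Atg5 and Atg16l1 conjugate, and the proteases Atg4b and Atg4c, which prime and release ATG8 proteins. Log2 changes ran from -0.25 for Atg12 to 0.17 for Atg16l2 in KO, and from -0.18 for Atg12 to 0.21 for Atg10 in WT. Atg16l1, the platform that places the conjugate, was the steadiest member, with a ratio of 1.155 between its highest and lowest libraries. Atg16l1 averaged 47.5 ± 1.66 CPM in R300 KO, 47.1 ± 0.356 CPM in blank KO, 45.4 ± 1.84 CPM in R300 WT and 47.1 ± 2.64 CPM in blank WT (SD, n = 3 each). Atg3 and Atg5, whose promoter sites are printed above, had no call. The same held for every other member, so calls cannot tell members with such sites from members without them.

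The ATG8 family held the lowest p-values of the R300 response in KO, through Map1lc3a and Gabarapl2, but not in WT. Map1lc3a had 21.6, 18.5 and 16.2 CPM in R300 KO, each above the 15.4, 13.7 and 14.4 CPM of blank KO. Its log2 change was 0.37 (SE 0.12), with an unadjusted p of 0.0122 and an adjusted p of 0.300. Over 20 other settings that adjusted p ran from 0.126 to 1.00. In WT the libraries of Map1lc3a overlapped, with 16.8, 16.2 and 18.2 CPM in R300 and 14.5, 16.98 and 15.3 CPM in blank, and the log2 change was 0.13 (SE 0.12, adjusted p 0.875). Gabarapl2 had 52.0, 51.5 and 48.4 CPM in R300 KO, again all above the 40.4, 45.7 and 46.4 CPM of blank KO. Its log2 change was 0.20 (SE 0.09, unadjusted p 0.0411, adjusted p 0.537). In WT, Gabarapl2 had 50.4, 48.0 and 47.1 CPM in R300 and 43.3, 49.1 and 45.3 CPM in blank, overlapping, with a log2 change of 0.08 (SE 0.09, adjusted p 0.893). Map1lc3b had log2 changes of 0.15 in KO and 0.12 in WT (SE 0.10 each), and Gabarap had 0.04 in KO and 0.09 in WT (SE 0.10 each). Gabarapl1 had -0.01 in KO and -0.04 in WT. In each genotype 4 of the 5 genes were above 0, and in KO 3 of 5 under library totals.

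Averaging the R300 contrast over both genotypes, a comparison chosen after seeing the data, gave more calls over all genes (603, or 3.64%). It still gave 0 among the members, and DESeq2 called 0 members as well, beside 1148 genes in all. At an unadjusted p under 0.05 the members again numbered 2, or 5.00% beside 15.6% of all genes, and 19 of 40 members were above 0 beside 49.3% of all genes. Map1lc3a had an averaged log2 change of 0.25 (SE 0.09, adjusted p 0.179), and its lowest adjusted p over the settings tried was 0.0820. For Gabarapl2 it was 0.14 (SE 0.06, adjusted p 0.297), and for Map1lc3b 0.14 (SE 0.07, adjusted p 0.397). In this contrast 39 of 40 intervals lay within 1.5-fold, the exception being Sqstm1.

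Cargo receptors link ubiquitin-tagged or membrane cargo to ATG8 proteins, and none of the 5 was called. Sqstm1 had 1766, 1596 and 1548 CPM in R300 KO and 1372, 2964 and 1591 CPM in blank KO, a log2 change of -0.27 (SE 0.27, adjusted p 0.927). In WT it had 1839, 1667 and 1691 CPM in R300 and 1553, 2515 and 1709 CPM in blank, a log2 change of -0.15 (SE 0.27, adjusted p 0.950). In both genotypes blank library 2 alone lay above all R300 libraries. Without that library the log2 change of Sqstm1 was 0.14 in KO (SE 0.19) and 0.09 in WT (SE 0.27). Its sign turned, but both values lay within 1 SE of 0. Nbr1 averaged 68.4 ± 8.86 CPM in R300 KO, 66.5 ± 9.51 CPM in blank KO, 63.5 ± 3.73 CPM in R300 WT and 66.6 ± 6.03 CPM in blank WT (SD, n = 3 each). Optn, a receptor for damaged mitochondria and bacteria, averaged 45.1 ± 7.68 CPM in R300 KO, 51.5 ± 10.2 CPM in blank KO, 51.6 ± 8.80 CPM in R300 WT and 53.5 ± 6.61 CPM in blank WT. Neither of these showed a group apart from the rest. Calcoco1 averaged 35.6 ± 1.79 CPM in R300 KO, 34.7 ± 5.23 CPM in blank KO, 35.9 ± 5.42 CPM in R300 WT and 37.1 ± 3.58 CPM in blank WT. Tax1bp1 averaged 285 ± 33.5 CPM in R300 KO, 288 ± 80.1 CPM in blank KO, 290 ± 39.0 CPM in R300 WT and 280 ± 50.03 CPM in blank WT. Each of these 4 had group means closer together than its spread within at least 1 group.

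Of the fusion factors, Stx17 is the SNARE of the completed autophagosome, Rab7 the GTPase of the lysosomal side and Epg5 a tether between them. Rab7 had 594, 583 and 742 CPM in R300 KO and 472, 584 and 676 CPM in blank KO, with overlap and a log2 change of 0.15 (SE 0.17, adjusted p 0.947). In WT it had 638, 758 and 614 CPM in R300 and 539, 504 and 696 CPM in blank, a log2 change of 0.21 (SE 0.17, adjusted p 0.838). The highest library in each group was the library without Xist. Epg5 went the other way, its lowest value in each group being the library without Xist, at 31.5 CPM in R300 KO, 29.7 CPM in blank KO, 33.7 CPM in R300 WT and 30.1 CPM in blank WT. Its other libraries held 41.2 to 48.2 CPM.

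Libraries labelled KO and WT were compared within each treatment. In R300 cells, KO against WT gave 0 called members and 0 called genes (0%) in edgeR. DESeq2 called 0 members, beside 12 genes in all. At an unadjusted p under 0.05 in edgeR there were 0 members beside 1.96% of all genes. The median log2 difference was 0.01 for members, with 22 of 40 above 0 beside 48.6% of all genes, and the differences ran from -0.19 for Optn to 0.22 for Atg2a. Libraries did not overlap for 2 members, or 5.00% beside 7.91% of all genes. These were Atg9a, higher in KO as were 4.03% of all genes, and Gabarapl1, lower in KO as were 3.87%. In blank cells edgeR gave 0 members and 0 genes (0%), and DESeq2 called 0 members, beside 2 genes in all. In edgeR 0 members had an unadjusted p under 0.05 beside 1.09% of all genes. The median log2 difference in blank cells was -0.01, with 14 of 40 above 0 beside 50.7% of all genes, and a range from -0.20 for Atg13 to 0.26 for Atg10. No member had libraries apart in blank cells, against 3.70% of all genes. Same-numbered blank libraries of KO and WT deviated together, and the tests above left that out. A replicate block on the 6 blank libraries was chosen after seeing the data. It gave 1 member and 677 of 15809 genes at an unadjusted p under 0.05 in edgeR. Without the block those libraries gave 0 members and 107 genes, and neither fit called a gene. Summed macrophage markers, given above, were lower in KO than in WT in both treatments, mostly through Lyz2. Lyz2 alone had 6058 to 7317 CPM in the 6 KO libraries and 12183 to 13522 CPM in the 6 WT libraries. The lower sums therefore do not show that macrophage markers in general were lower in KO. The part of this difference in the values here was not tested.

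Gabarapl1 had the lowest p of the genotype comparison in both treatments. In R300 cells it had 112, 111 and 126 CPM in KO, each below the 130, 128 and 127 CPM of WT, and the log2 difference was -0.14 (SE 0.10, adjusted p 1.00). In blank cells it had 101, 123 and 128 CPM in KO and 126, 137 and 134 CPM in WT, which overlapped, and the log2 difference was -0.17 (SE 0.10, adjusted p 1.00). Averaged over both treatments, a comparison chosen after seeing the data, it was -0.16 (SE 0.07) at an unadjusted p of 0.0486 and an adjusted p of 1.00. That averaged contrast called 0 of 40 members in edgeR, beside 0.00604% of all genes, and 0 in DESeq2, beside 48 genes in all. In edgeR it had 1 member (Gabarapl1) at an unadjusted p under 0.05 beside 2.80% of all genes. Above 0 were 20 of 40 members beside 49.2% of all genes. Ulk2 in blank cells had a log2 difference of -0.17 (SE 0.11) and Atg2b one of -0.11 (SE 0.09), both with libraries of KO and WT overlapping. In blank cells Atg2b had 31.2, 33.6 and 34.4 CPM in KO and 35.1, 39.3 and 32.6 CPM in WT. In R300 cells Wipi1 had 22.9, 23.5 and 18.7 CPM in KO and 18.5, 18.3 and 21.1 CPM in WT, a log2 difference of 0.17 (SE 0.15, adjusted p 1.00). Map1lc3a in R300 cells had a log2 difference of 0.14 (SE 0.12, adjusted p 1.00), from the values given above.

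**Figure D3:**
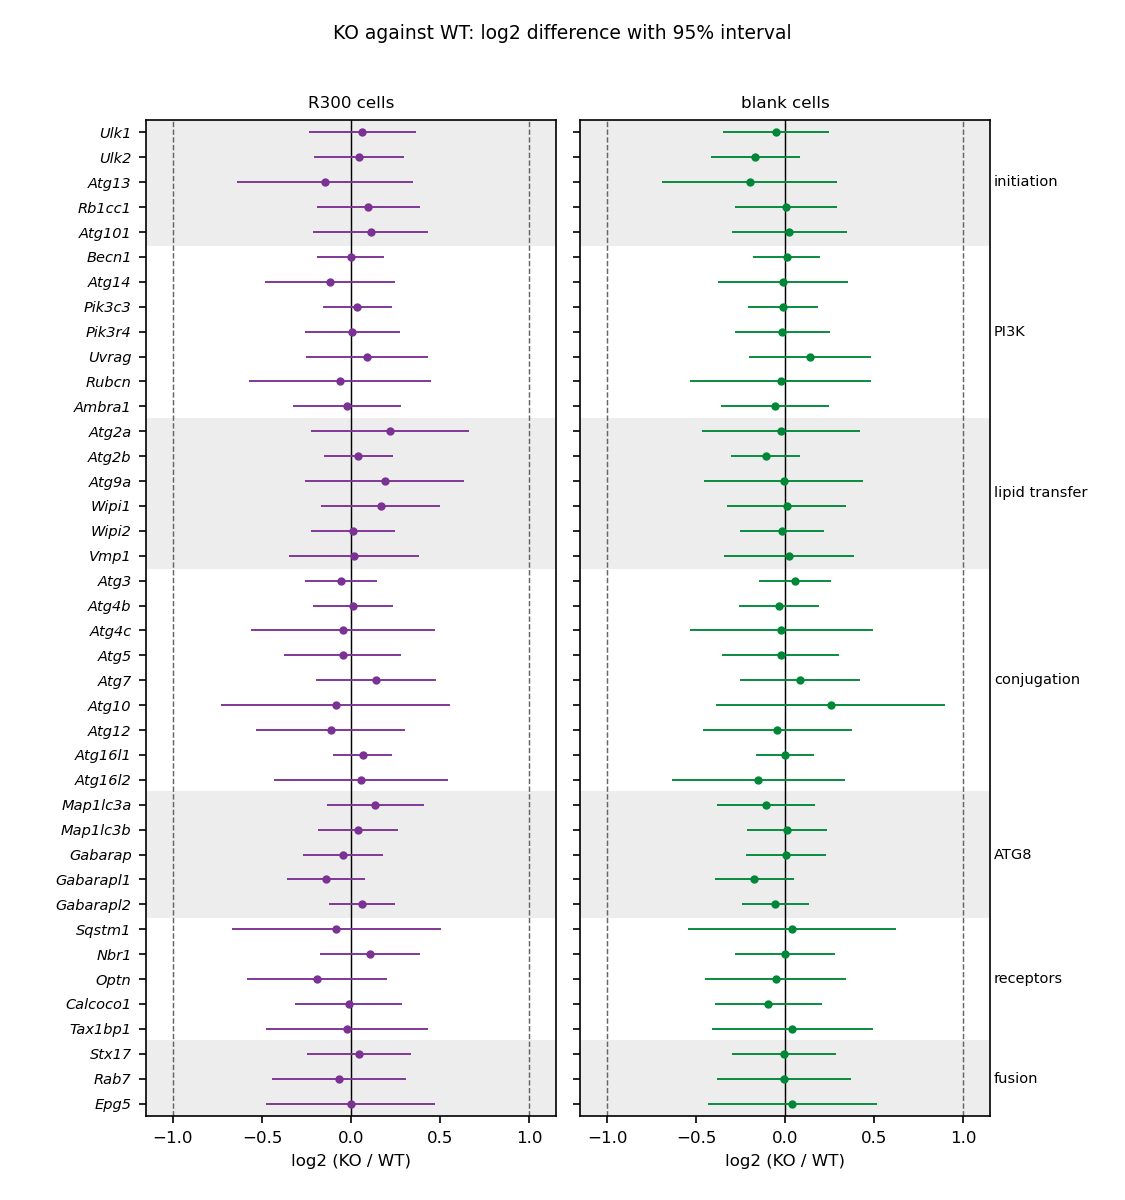
Log2 difference of each member between KO and WT with its 95% interval, in R300 cells and in blank cells, grouped by role. Intervals end between -0.729 and 0.898, inside the dashed lines that mark 2-fold, and all of the points lie between -0.20 and 0.26.

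Whether the R300 response differed between genotypes was tested as an interaction, KO minus WT. It called 0 members and 0 genes (0%) in edgeR, DESeq2 called 0 members, and 0 members had an unadjusted p under 0.05 beside 0.574% of all genes. Differences were above 0 for 24 of 40 members and 48.5% of all genes. The lowest p-values among members were those of Map1lc3a with a log2 difference of responses of 0.25 (SE 0.18), Ulk2 with 0.21 (SE 0.16) and Atg2b with 0.15 (SE 0.12), each at an adjusted p of 1.00. Without blank KO library 2 the R300 change of Ulk2 in KO was -0.09 (SE 0.10). The interval for Map1lc3a ran from -0.14 to 0.63 on the log2 scale. So the separation of its R300 and blank libraries in KO, and their overlap in WT, is not shown to be a difference between genotypes. Of the 40 intervals of the interaction, 39 lay within 2-fold and 24 within 1.5-fold, and Atg10 reached beyond 2-fold with -1.25 to 0.57.

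Libraries of a group also differed among themselves. The ratio of the highest to the lowest of the 12 libraries was under 2 for 38 of 40 members, with a median of 1.46. Sqstm1 reached 2.159 and Atg10 reached 2.007. Blank library 2 was the highest of its group in both genotypes for 11 members, namely Atg101, Atg13, Atg14, Atg16l2, Atg2a, Atg9a, Becn1, Rb1cc1, Sqstm1, Tax1bp1 and Wipi2, a pattern that 21.5% of all genes showed. It was the lowest of its group in both genotypes for 7 members, among them Ulk2, Atg5, Atg7 and Stx17, beside 21.0% of all genes. The library without Xist was the highest in 4 of 4 groups for 6 members (Atg10, Atg3, Atg7, Gabarap, Map1lc3b and Rab7), beside 13.9% of all genes. It was the lowest in 4 of 4 groups for Ambra1, Atg16l2, Epg5 and Nbr1, beside 12.2% of all genes. Taking only the 4 libraries without Xist, 1 per group and so with no test, log2 ratios of R300 to blank ran from -0.27 for Atg10 to 0.37 for Atg2a in KO and from -0.22 for Rubcn to 0.47 for Atg101 in WT. In WT, 32 of 40 members were above 0 (median 0.08) in the libraries without Xist, a ratio of 1 library to 1 library. The fit to WT libraries with Xist had 11 of 40 above 0 (median -0.09, beside -0.01 for all genes), against 17 of 40 in all. In KO, 19 of 40 were above 0 without Xist (median -0.01) and 20 of 40 with Xist (median 0.00). The share of all genes above 0 was not computed for the libraries without Xist. These counts therefore do not show a trait of the members.

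**Figure D4:**
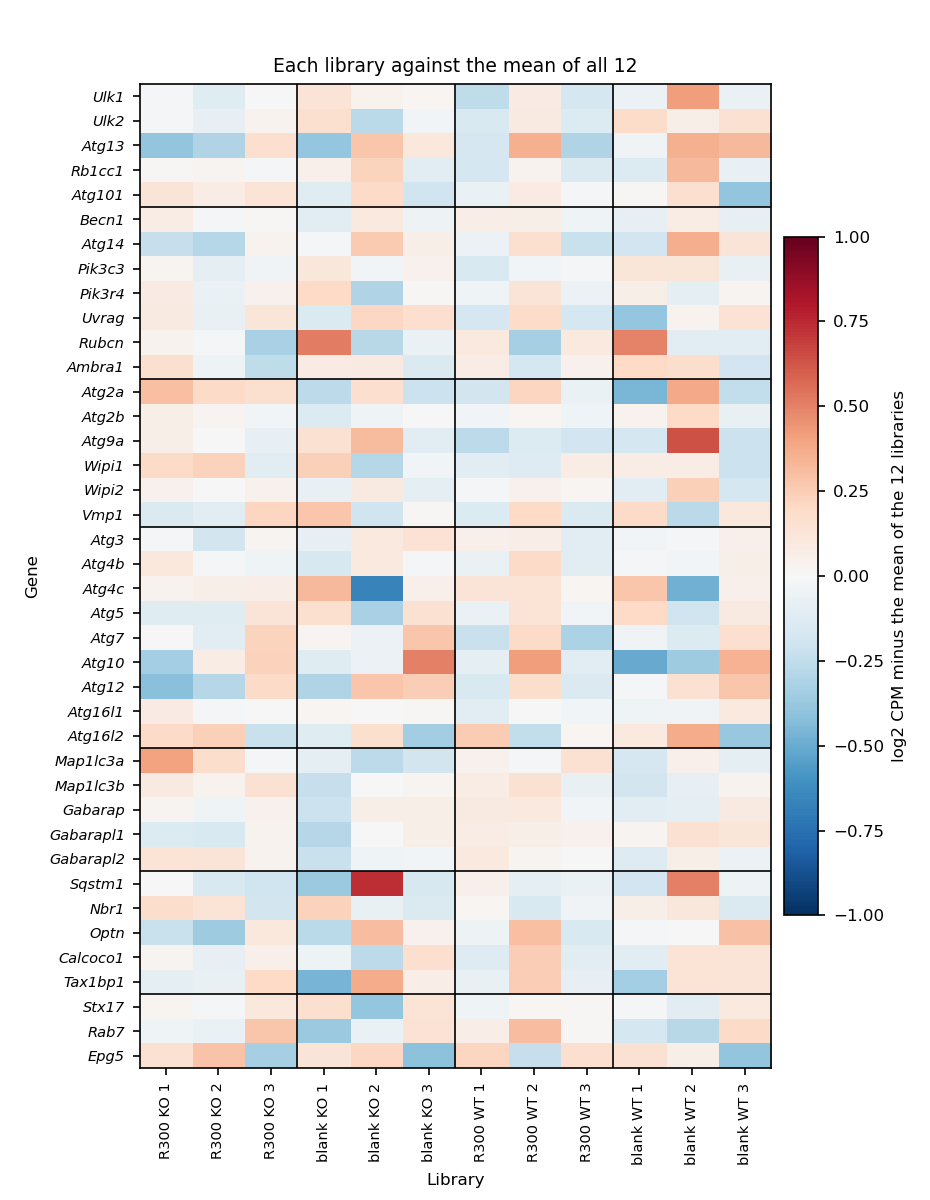
Log2 CPM of each library minus the mean of all 12, for the 40 members in rows by role and the 12 libraries in columns by group. Blank library 2 in both genotypes is high for Sqstm1 and Atg9a and low for Atg4c, and the libraries without Xist (R300 KO 3, blank KO 3, R300 WT 2 and blank WT 3) are low for Epg5.

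Other genes of the pathway, from lists of 22 further core and fusion genes, 16 further receptors and mitophagy genes, 23 upstream kinases and transcription factors and 12 partners of LC3-associated phagocytosis, were all tested. In KO, edgeR called 1 of these 73 genes for R300 against blank, with 9 at an unadjusted p under 0.05. Over all genes edgeR called 0.834% in KO, with 8.78% at an unadjusted p under 0.05. DESeq2 called 4 of the 73 in KO, beside 416 genes in all. In WT, edgeR called 0 of the 73, with 7 at an unadjusted p under 0.05, beside 0.623% and 8.72% of all genes. DESeq2 called 1 of the 73 in WT, beside 332 genes in all. DESeq2 was run without the filter on low counts, so its counts cannot be set against the edgeR shares. Log2 changes above 0 were found in KO for 7 of 22, 8 of 16, 13 of 23 and 6 of 12 genes of those lists, and in WT for 8 of 22, 8 of 16, 9 of 23 and 6 of 12. Vps18, a subunit of the tethering complexes of lysosomes, had a log2 change of 0.29 in KO (adjusted p 0.472), and Rtn3, a reticulum receptor, had 0.13 in KO (adjusted p 0.788) and 0.14 in WT (adjusted p 0.695). Wdr45b, a relative of the WIPI proteins, had -0.17 in WT (adjusted p 0.652), and the oxidase subunit Ncf1 had -0.46 in WT (adjusted p 0.428). The gene called in KO was Ddit4, which encodes REDD1, an inhibitor of mTORC1. Ddit4 rose in R300 KO to 36.0, 40.5 and 15.6 CPM, against 5.62, 9.52 and 5.71 CPM in blank KO, a 4.41-fold difference (log2 2.14, SE 0.42, adjusted p 0.0474). That call was lost in 14 of 20 other settings, with adjusted p from 4.88e-05 to 0.300 and log2 changes from 1.87 to 2.45. It was lost without each of blank KO libraries 1, 2 and 3, R300 KO libraries 1 and 2, blank WT libraries 1, 2 and 3 and R300 WT libraries 1 and 3. In WT, Ddit4 had 30.9, 14.0 and 36.5 CPM in R300 and 5.71, 8.41 and 5.64 CPM in blank, a 4.10-fold difference with an adjusted p of 0.0786. In each genotype the lowest R300 value of Ddit4 was that of the library without Xist, and it still lay above all blank libraries.

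Averaged over both genotypes, edgeR called 6 of the 73 genes, with 17 at an unadjusted p under 0.05. Over all genes those edgeR shares were 3.64% and 15.6%. DESeq2 called 7 of the 73, beside 1148 genes in all. Ddit4 rose 4.25-fold (adjusted p 0.00339) and was called in 20 of 20 other settings. Stk11, which encodes LKB1, the kinase upstream of AMPK, rose 1.31-fold (log2 0.39, SE 0.07, adjusted p 0.0125) and was called in 18 of 20 settings, the exceptions being those with the near-alike R300 libraries summed or only libraries with Xist. Stk11 had 149, 122 and 128 CPM in R300 KO and 111, 95.3 and 94.4 CPM in blank KO, and 128, 143 and 132 CPM in R300 WT and 108, 102 and 98.8 CPM in blank WT, with no overlap in either genotype. Plekhm1, an adaptor that links RAB7 to the fusion machinery, fell in the averaged contrast, with a log2 change of -0.58 (SE 0.12, adjusted p 0.0203, called in 14 of 20 settings). It had 132, 116 and 118 CPM in R300 KO and 218, 149 and 185 CPM in blank KO, and 126, 139 and 123 CPM in R300 WT and 224, 148 and 203 CPM in blank WT, with no overlap in either genotype. Its call was lost with the near-alike pairs summed, with only libraries with Xist, and without blank WT library 1, R300 WT libraries 1 or 3 or R300 KO library 2 (highest adjusted p 0.151). Over all genes, R300 and blank libraries did not overlap for 12.3% in KO and 12.8% in WT. Stk11 and Plekhm1 were named for their low p in the same libraries, so their separation is not further support. Foxo1, a transcription factor with autophagy genes among its targets, rose with a log2 change of 0.35 (SE 0.08, adjusted p 0.0322), and this call held in 5 of 20 settings, being lost on leaving out any single library other than blank WT library 2 (highest adjusted p over settings 0.188). Fcgr3, an Fc receptor for IgG, rose with a log2 change of 0.50 (SE 0.10, adjusted p 0.0222, 13 of 20 settings). In KO alone its log2 change was 0.64 (SE 0.15, adjusted p 0.0864 in edgeR). The difference of its responses, KO minus WT, was 0.28 (SE 0.21, unadjusted p 0.205 in edgeR). Its call was lost with the near-alike pairs summed and without blank WT libraries 1 or 2, R300 WT libraries 1 or 3 or R300 KO libraries 1 or 2, with adjusted p up to 0.171. No gene of the list of further receptors was called, and the lowest p there was that of Retreg1, a receptor for the endoplasmic reticulum, at a log2 change of 0.33 (SE 0.10, adjusted p 0.111). By genotype, Retreg1 had 0.43 in KO (SE 0.14, adjusted p 0.289) and 0.23 in WT (SE 0.14, adjusted p 0.739) in edgeR. KO against WT called 0 of the 73 genes in R300 cells and 0 in blank cells, by edgeR and by DESeq2, with 0 at an unadjusted p under 0.05 in both.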

How the data were processed

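Poly(A) RNA of 12 macrophage libraries was measured. The deposited values are raw counts per gene symbol, and the tools named in the submitters' processing notes are featureCounts 2.0.3, DESeq2 1.42.0, fastp 0.23.4, FastQC 0.12.1 and HISAT2 2, beside the build mm10, with no order or role. How reads on overlapping or near-identical genes were counted is not given in the sources used here. The 12 columns equalled the 12 sample files. Rows without a symbol (102 of 35050, 0.0232% to 0.0328% of counts) were left out. Counts were tested with edgeR 4.0.16 in R 4.3.3 (TMM scaling, filterByExpr, robust quasi-likelihood fit of 1 mean per group over 12 libraries), with Benjamini-Hochberg adjustment over 16546 genes and calls at 0.05. The common biological coefficient of variation was 0.267. Levels are TMM-scaled CPM, and CPM per kb divides by merged exons of the GENCODE annotation of GRCm38. Intervals of 95% use the degrees of freedom of the fit. DESeq2 1.42.0, other scalings and filters, a replicate block, terms for the library patterns and each library left out were alternatives. Members given with every library are the 3 with the lowest p in each comparison, and other genes are those called or the 2 with the lowest p per list in the R300 comparisons. The ATG8 family and cargo receptors are given with group levels. Values of Atg2a, Atg16l1, Rubcn, Rab7 and Epg5, of Ulk1 in KO, of Lyz2 and the promoters shown were added after their values were seen. Members and lists were chosen with earlier results of these data known. Same-numbered KO and WT blank libraries deviated together (correlations 0.514, 0.535 and 0.558), a pairing read from the data and not stated in the labels, and a replicate block changed no call among members. A called gene of the further lists is not reported here.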

Additional observations from a re-analysis of the deposited data

How the results depend on the processing

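The count of called members was 0 in every comparison under each of 20 alternatives: DESeq2, relative log expression size factors, library totals, no filter, a replicate block, a term for libraries with and without Xist, only libraries with Xist, near-alike R300 pairs summed, and each library left out. The number of members with an interval within 2-fold stayed between 38 and 40, or 35 and 40 for the interaction, with Atg10, Sqstm1, Atg9a and Atg2a among the exceptions. The log2 change of Atg9a in WT (-0.34) vanished without blank WT library 2, at 0.000100 (SE 0.13), and leaving out 1 library gave -0.49 to 0.000100. Calls over all genes moved, and the cause was not tested. For R300 against blank in WT (103 calls) they were 332 with DESeq2, 347 with the Xist term, 242 with only libraries with Xist and 27 with the pairs summed. In KO (138 calls) they were 416, 450, 290 and 35 under those settings, and averaged over genotypes (603 calls) 1148, 1492, 1004 and 158. KO against WT in R300 cells (0 calls) gave 12 with DESeq2 and 1 with no filter. In blank cells (0 calls) it gave 2 with DESeq2, 1 with no filter and 1 with the Xist term. Averaged over treatments (1 call) it gave 48 with DESeq2, 28 with the Xist term, 0 with only libraries with Xist and 0 with the pairs summed. Leaving out 1 library gave 32 to 135 calls in WT, 45 to 171 in KO, 308 to 852 averaged over genotypes and 1 to 10 for the averaged genotype contrast. Counts moved by over 1.5 times in WT without blank WT libraries 1 (33), 2 (45) or 3 (56), R300 WT libraries 1 (32) or 3 (32) or R300 KO libraries 1 (60) or 2 (55). In KO they did so without R300 WT libraries 1 (81) or 3 (85), blank KO libraries 1 (59) or 3 (86) or R300 KO libraries 1 (45) or 2 (45). Averaged over genotypes they did so without R300 WT libraries 1 (308) or 3 (323) or R300 KO libraries 1 (317) or 2 (314), and for the averaged genotype contrast without blank KO library 2 (10) or blank WT library 2 (7). With the replicate block, R300 against blank had 141 calls in KO and 119 in WT and no member was called. Outside blank cells the numbers did not pair all libraries, with correlations from -0.599 to 0.608. A block on the 6 blank libraries alone, chosen after seeing the data, called 0 of 15809 genes. At an unadjusted p under 0.05 in edgeR it gave 1 member and 677 genes, against 0 members and 107 genes without the block. With 3 libraries per group, the absence of a call does not exclude differences as large as the intervals given allow.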
